A study of Mus musculus with 40 samples.

Results

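The 40 genes described here cover cholesterol synthesis, its regulation by sterols, cholesterol uptake, transport, efflux and storage, and the fatty acid desaturases and elongase that share its transcription factors. Their rows were found in a table of raw counts by Ensembl identifier, with the version removed, and each symbol had 1 row among 56980. Of the 40, 39 passed the filter on low counts. Fdps, the enzyme that makes farnesyl pyrophosphate, did not: it had 72 counts over all 40 libraries, at most 6 in 1 library and 0 in 10 of them. Its level is therefore not read here, apart from its counts within sums over the synthesis enzymes. In the GENCODE M21 annotation, which is not the one used for counting, exons of Gm43738 on the same strand cover 26.7% of its exon bases.

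Polyadenylated RNA came from wild-type C57BL/6J mice, all female. The tissue is labelled as brain, and the medial prefrontal cortex is named in the series title. Adolescents, starting on postnatal day 25, and adults, starting on postnatal day 55, either stayed on water or drank antibiotics, which the labels do not name, and all were injected subcutaneously, with saline or with morphine, an opioid, at 15 mg/kg for 5 days. The 8 groups of 5 libraries are called by age, drink and injection. No group was left without injections. The labels leave it unsaid whether each library is a mouse of its own, and the p-values then reflect no more than the spread among libraries, which may be technical.

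Cholesterol is made in 2 blocks of enzymes. The mevalonate block joins acetyl units to mevalonate and on to isoprenoid units, and the later block joins these to squalene, closes the rings at lanosterol and trims the product to cholesterol. When membranes of the endoplasmic reticulum hold little sterol, the escort protein Scap carries the precursors of the SREBP factors, encoded by Srebf1 and Srebf2, to the Golgi, where they are cut and released to activate these genes. Insig proteins hold Scap back when sterol is plentiful. Liver X receptors respond to oxidised sterols and act the other way, raising the efflux pumps and Srebf1. Brain cholesterol is made locally, since plasma lipoproteins do not cross the blood-brain barrier. Oligodendrocytes use it for myelin, astrocytes pass it to neurons on Apoe particles, and neurons dispose of it through Cyp46a1.

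The libraries held between 8.64 and 12.1 M counts each (M for mega). Levels are in CPM, counts per 1 M counts of the genes that passed the filter, with library totals adjusted by edgeR's TMM factors (0.923 to 1.04). By plain totals of all counts, a count of 3 was worth 0.248 to 0.347 CPM. Such a floor reflects counting error alone. The excitatory neuron marker Slc17a7 was read at 1508 to 1974 CPM, and 4 choroid plexus markers together at 1.61 to 5.38 CPM, with Ttr at 0 counts in 7 libraries, Folr1 in 20 and Clic6 in 10. Markers of astrocytes, oligodendrocytes, microglia and vessels were present in all libraries.

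Per kilobase of exon, the level of Apoe was highest among the members, at 580.4 CPM per kb over all 40 libraries, followed by the desaturase Scd2 at 196, the cholesterol 24-hydroxylase Cyp46a1 at 67.5 and Hmgcs1, the enzyme that makes HMG-CoA, at 56.5. At the other end were the acyltransferase Soat1 at 3.01 CPM per kb, the ring-closing enzyme Lss at 3.02 and the reductase Tm7sf2 at 3.43. Exon lengths are from M21. In that annotation other genes on the opposite strand also cover 3.76% of the exon bases of Cyp51 (Akap9), 5.44% of Ggps1 (Arid4b), 3.53% of Lss (4930483K19Rik) and 13.2% of Scap (5830462I19Rik), and Vps51 on the same strand covers 12.1% of Tm7sf2. Counts of these members are uncertain, by an amount that these shares do not bound: Vps51, at 50.65 CPM, and Akap9, at 96.5 CPM, had higher levels than the members they overlap.

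In adolescents given both antibiotics and morphine, transcripts of synthesis enzymes were lower than in adolescents given morphine on water. Of 39 members tested, 17 passed edgeR's quasi-likelihood test at an adjusted p under 0.05, 13 of them lower and 4 higher, where 7.56% of all 17880 genes tested passed, 4.02% lower and 3.54% higher. Among 18 synthesis enzymes 9 fell and 1 rose, with a median log2 fold change of -0.23 against -0.010 over all genes. Among the 21 other members 4 fell and 3 rose, with a median of -0.10. Set against adolescents given antibiotics and saline, the same libraries had 8 members called, 6 lower and 2 higher, where 2.92% of all genes passed, 1.34% lower and 1.58% higher. There 5 of 18 synthesis enzymes fell and none rose, with a median of -0.20 against -0.0047 over all genes, and of the other 21 members 1 fell and 2 rose. These 2 comparisons share their antibiotics-morphine libraries and are not independent. In whole tissue, fewer cells of a type and less RNA per cell cannot be told apart.

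**Figure D1:**
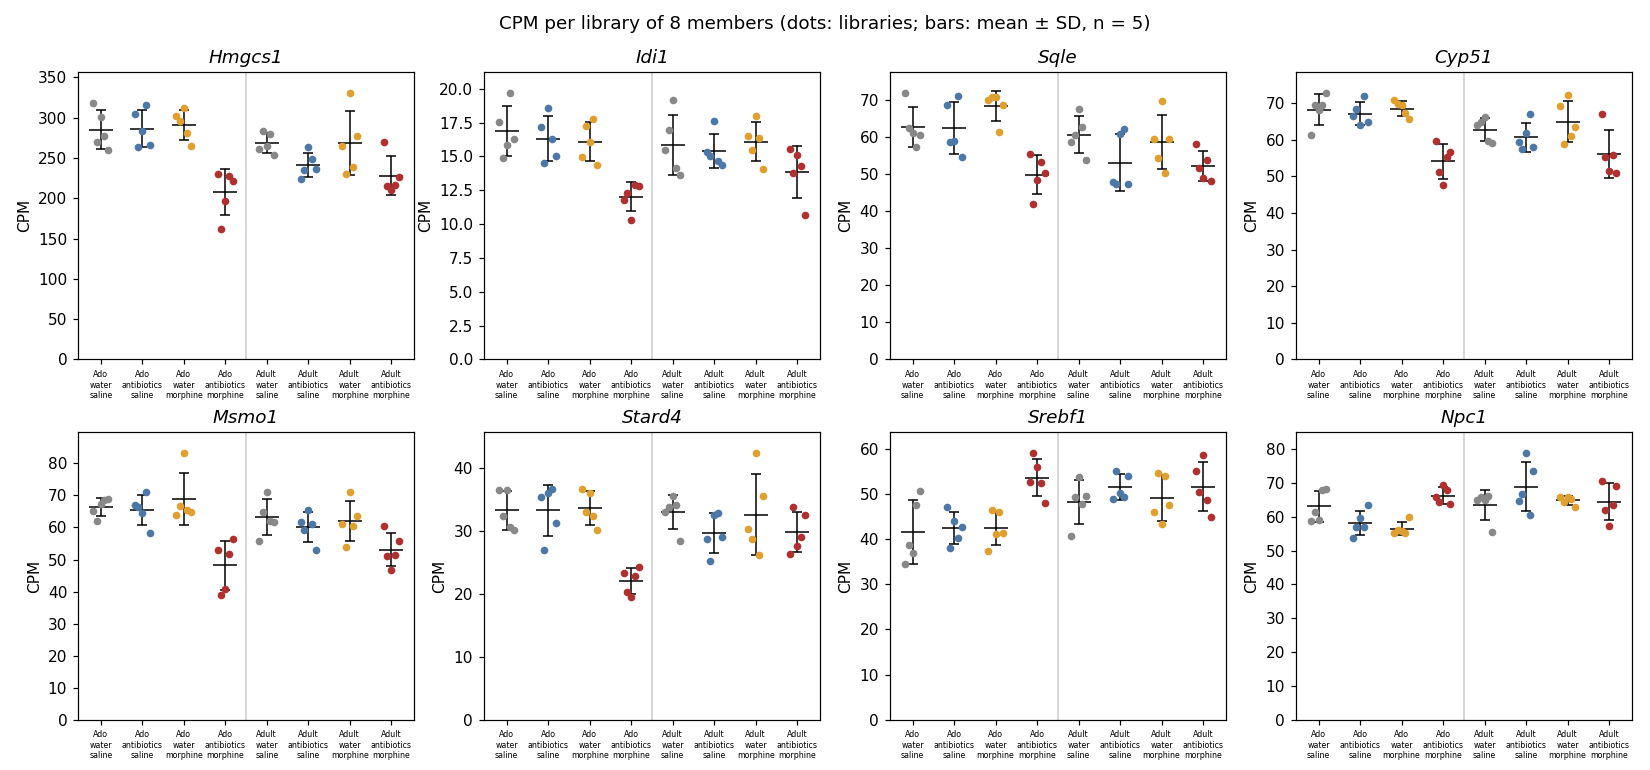
CPM of 8 members (vertical axes, from 0) in each of the 40 libraries, by group. Dots are libraries and bars are the mean ± SD of 5. The 5 libraries of adolescents on antibiotics and morphine lie lowest in Stard4, at 19.5 to 24.4 CPM, and below the other 3 adolescent groups in Hmgcs1, Idi1, Cyp51 and Msmo1.

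The mevalonate block was led by Hmgcs1 (identifier ENSMUSG00000093930.3), which condenses acetyl groups to HMG-CoA. In adolescents Hmgcs1 read 318, 269.6, 301, 277 and 259 CPM on water and saline (replicates 1 to 5) and 305, 264, 283, 315 and 265 CPM on antibiotics and saline. With morphine it read 302, 296, 312, 280.4 and 265 CPM on water and 231, 162, 196, 227 and 222 CPM on antibiotics. Every library of the last group was below every library of the other 3, and replicate 2 was lowest. Its log2 fold change was -0.49 ± 0.082 (SE) for antibiotics under morphine (edgeR adjusted p = 0.000126) and -0.46 ± 0.082 for morphine on antibiotics (adjusted p = 0.000482). Both calls held when any 1 library was left out. The antisense gene Gm48342, which overlaps 12.1% of the exon bases of Hmgcs1 and averaged 84.4 CPM, had log2 fold changes of -0.56 and -0.38 in the same comparisons (edgeR adjusted p = 8.3e-05 and 0.0125). No source used here states whether strand was used in counting, so reads of the pair cannot be told apart.

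Idi1, the isomerase of the 5-carbon isoprenoid units, read 14.9, 17.3, 16.1, 17.7 and 14.4 CPM on water and morphine and 11.8, 12.3, 10.3, 12.9 and 12.8 CPM on antibiotics and morphine. On antibiotics and saline it read 17.1, 14.5, 18.6, 16.3 and 15.1 CPM. The antibiotics-morphine libraries again lay below both sets without overlap, with replicate 3 lowest. Idi1 fell in both comparisons, at log2 fold changes of -0.42 ± 0.11 against water (edgeR adjusted p = 0.00896) and -0.44 ± 0.11 against saline (adjusted p = 0.012). Without antibiotics-morphine replicate 3 neither passed, nor did the second without antibiotics-saline replicate 3, with an adjusted p of at most 0.0594. A further gene, Gm48574, covers 9.22% of its exon bases. The other 5 mevalonate enzymes tested (Acat2, Mvk, Pmvk, Mvd and Ggps1) did not pass in either comparison. All 5 log2 fold changes were negative, from -0.14 for Acat2 to -0.059 for Mvk against water and from -0.28 for Pmvk to -0.012 for Ggps1 against saline.

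In the block from squalene to cholesterol, 7 of 11 enzymes fell and 1 rose with antibiotics under morphine, and 3 fell with morphine on antibiotics. Msmo1, the C4-methyl sterol oxidase (ENSMUSG00000031604.11), read 63.9, 66.8, 83.1, 65.6 and 64.9 CPM on water and morphine and 52.8, 38.98, 40.9, 51.8 and 56.3 CPM on antibiotics and morphine. On antibiotics and saline it read 67.1, 66.3, 64.4, 71.1 and 58.2 CPM. The highest antibiotics-morphine library lay under the lowest of either other group, and replicates 2 and 3 stood below the other 3. Its log2 fold changes were -0.51 ± 0.084 (edgeR adjusted p = 5.7e-05) and -0.44 ± 0.084 (adjusted p = 0.00119), and both calls held without any 1 library.

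Sqle, squalene epoxidase, which adds the first oxygen, read 70.1, 70.9, 70.8, 61.5 and 68.8 CPM on water and morphine and 55.4, 41.9, 48.6, 53.3 and 50.3 CPM on antibiotics and morphine, against 68.7, 58.8, 59.01, 71.2 and 54.7 CPM on antibiotics and saline. The antibiotics-morphine libraries did not overlap the first of these groups, while replicate 1, the highest of them, overlapped the lowest of antibiotics and saline. Sqle fell, at log2 fold changes of -0.45 ± 0.085 against water (edgeR adjusted p = 0.000497) and -0.32 ± 0.086 against saline (adjusted p = 0.0243). The second call was lost without antibiotics-saline replicate 1 or 4 or antibiotics-morphine replicate 2 or 3, where the adjusted p reached 0.114. Cyp51, lanosterol demethylase, read 70.9, 69.6, 69.4, 67.2 and 65.6 CPM and 59.6, 51.3, 47.5, 55.2 and 56.7 CPM in the morphine groups on water and on antibiotics, and 66.4, 68.4, 64, 71.99 and 64.9 CPM on antibiotics and saline. The 5 antibiotics-morphine values were again the lowest in both comparisons. The log2 fold changes of Cyp51 were -0.34 ± 0.068 (edgeR adjusted p = 0.000914) and -0.31 ± 0.068 (adjusted p = 0.00437), and neither call was lost without 1 library.

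Sc5d, Ebp, Dhcr7 and Hsd17b7, which act on later sterol intermediates, passed against water only. Sc5d, the lathosterol oxidase, read 66.2, 72.3, 79.2, 73.2 and 71.04 CPM on water and morphine and 58.1, 60.1, 60.8, 56.7 and 66.1 CPM on antibiotics and morphine. Replicate 5 of the latter, at 66.12 CPM, lay just under replicate 1 of the former, at 66.20 CPM, so the ranges met without overlap. Sc5d fell, at a log2 fold change of -0.26 ± 0.062 (edgeR adjusted p = 0.00508). Ebp, the sterol isomerase, read 9.68, 13.02, 11.7, 13.5 and 12.04 CPM and 7.81, 6.00, 6.23, 9.49 and 10.04 CPM in the same 2 groups. Replicates 4 and 5 on antibiotics stood near the lowest water library and replicates 2 and 3 well below it, and the ranges overlapped. Ebp fell, at a log2 fold change of -0.59 ± 0.14 (edgeR adjusted p = 0.00558). Dhcr7, the last reductase of one branch, read 36.5, 34.5, 34.7, 33.6 and 39.2 CPM and 30.5, 24.9, 23.6, 29.7 and 30.7 CPM, without overlap. Its log2 fold change was -0.36 ± 0.090 (edgeR adjusted p = 0.00896), and the call was lost without antibiotics-morphine replicate 2 or 3, at up to 0.0685. Hsd17b7, a sterol ketoreductase, had a log2 fold change of -0.27 ± 0.087 (adjusted p = 0.0448), a call lost without 8 of the 10 libraries, all but water-morphine replicate 3 and antibiotics-morphine replicate 5, and the adjusted p rose to 0.187.

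Lss, which closes the rings, was the 1 synthesis enzyme that rose. It read 30.6, 31.6, 31.2, 30.4 and 29.4 CPM on water and morphine and 40.6, 40.9, 41.8, 36.9 and 29.7 CPM on antibiotics and morphine. Replicates 1 to 4 of the second group stood above every library of the first, and replicate 5 lay within it. The log2 fold change was 0.31 ± 0.089 (edgeR adjusted p = 0.023), and without antibiotics-morphine replicate 1, 2 or 3 it did not pass (adjusted p up to 0.0704). Against saline the log2 fold change of Lss was 0.22 ± 0.089 (adjusted p = 0.177). Fdft1, Tm7sf2 and Nsdhl passed in neither comparison, at log2 fold changes of -0.16, 0.19 and -0.20 against water. Exons of Ctsb on the other strand cover 18.3% of those of Fdft1.

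Promoters of synthesis enzymes are shown because these genes are known as joint targets of SREBP, which is known to work beside NF-Y at CCAAT boxes. RefSeq (GRCm38.p6) windows from 250 bases before to 50 after the start were given for 31 of the 40 members, 16 of them synthesis enzymes. Sqle, Fdps, Stard4, Abcg1, Scd1, Fdft1, Scd2, Npc1 and Fads1 had no window. Each line gives the 150 bases before the start of 1 gene, 5′ to 3′ on its own strand, with CCAAT (or ATTGG, the same box on the other strand) and the shortened sterol element TCACNCCAC in capitals. The first 6 genes fell with antibiotics under morphine in adolescents and Lss rose.
Hmgcs1 (chr13:119690201-119690350, plus strand): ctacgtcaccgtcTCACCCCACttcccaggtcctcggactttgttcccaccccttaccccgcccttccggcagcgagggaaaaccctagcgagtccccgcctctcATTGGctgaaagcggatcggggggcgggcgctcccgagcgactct
Idi1 (chr13:8885456-8885605, plus strand): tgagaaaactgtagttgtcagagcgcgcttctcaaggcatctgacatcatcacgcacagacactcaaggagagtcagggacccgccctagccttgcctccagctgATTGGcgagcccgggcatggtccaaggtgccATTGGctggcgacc
Cyp51 (chr5:4104698-4104847, minus strand): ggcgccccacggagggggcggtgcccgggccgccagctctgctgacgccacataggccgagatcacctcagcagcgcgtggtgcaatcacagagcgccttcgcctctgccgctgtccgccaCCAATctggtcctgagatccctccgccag
Msmo1 (chr8:64733579-64733728, minus strand): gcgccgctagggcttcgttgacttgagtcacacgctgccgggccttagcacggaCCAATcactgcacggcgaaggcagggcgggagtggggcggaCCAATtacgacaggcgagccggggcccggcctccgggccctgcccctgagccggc
Sc5d (chr9:42264301-42264450, minus strand): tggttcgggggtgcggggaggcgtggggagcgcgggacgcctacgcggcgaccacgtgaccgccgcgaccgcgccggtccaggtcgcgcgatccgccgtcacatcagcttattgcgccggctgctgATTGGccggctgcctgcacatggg
Ebp (chrX:8193513-8193662, minus strand): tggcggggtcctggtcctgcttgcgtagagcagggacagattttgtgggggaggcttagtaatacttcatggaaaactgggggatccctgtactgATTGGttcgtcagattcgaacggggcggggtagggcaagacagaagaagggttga
Lss (chr10:76531455-76531604, plus strand): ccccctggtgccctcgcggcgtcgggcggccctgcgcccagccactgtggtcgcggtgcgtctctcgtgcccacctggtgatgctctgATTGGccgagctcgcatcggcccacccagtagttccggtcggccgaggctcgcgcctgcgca

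All 7 printed stretches hold a CCAAT box, that of Lss included, and Idi1 and Msmo1 hold 2 within these 150 bases. Dhcr7 and Hsd17b7 also fell and have windows, but are not printed. The stretch of Hsd17b7 holds the box, and of the several stretches of Dhcr7 not all do. Searching both strands of the whole windows, CCAAT was found for 15 of 16 synthesis enzymes and 23 of 31 members, against 41.1% of 27025 genes with any window. The 27025 genes were not limited to those that passed the filter on low counts, as all 31 members did. The GC box GGGCGG was found for 14 of 16 and 26 of 31, against 38.2% of genes. The E-box CACGTG, a palindrome, was found for 3 of 16 and 6 of 31, against 8.09%. The full sterol element, which is TCACNCCAC with an A before it and a C as its N, was in 0 of 31 members and in 0.0999% of genes. TCACNCCAC itself was found in 1 member, Hmgcs1, starting 137 bases before its start, and in 1.44% of genes. A match is a run of letters and not a measured binding site, and a gene with several windows counted once if any held the letters.

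Summed over the 19 synthesis enzymes, the level per library was 679 to 823 CPM in adolescents on antibiotics and morphine and 882 to 1006 CPM in the 15 other adolescent libraries, with no overlap. These sums include the few counts of Fdps, which averaged 0.187 CPM over all 40 libraries. With saline the group means were 926 ± 18.7 CPM for water and 926 ± 48.0 CPM for antibiotics, and with morphine 954 ± 36.2 CPM for water and 772 ± 63.8 CPM for antibiotics (SD, n = 5). Hmgcs1 gave the largest part of each sum. Without it the sums were 517 to 595 CPM in the antibiotics-morphine libraries and 616 to 694 CPM in the other 15, still without overlap. Within the antibiotics-morphine group, replicates 2 and 3 held the lowest value for 8 and 7 of 18 enzymes. Leaving out replicate 2 or replicate 3 of that group reduced the members called against water from 17 to 10 and 9, and those called against saline from 8 to 5 and 4. Antibiotics-saline replicate 4 also took the latter count to 5.

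**Figure D2:**
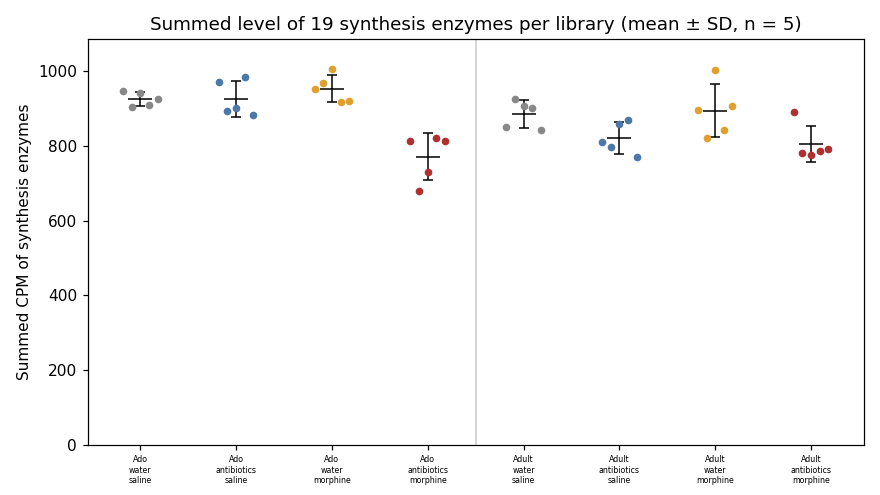
Summed CPM of the 19 synthesis enzymes (vertical axis, from 0) in each library, by group, with the mean ± SD of 5 libraries. Adolescents on antibiotics and morphine lie at 679 to 823 CPM, below the other 15 adolescent libraries, while the 4 adult groups overlap.

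Among the 7 genes of sterol sensing and regulation, the 2 SREBP genes moved in opposite directions. Srebf1 (ENSMUSG00000020538.16), whose protein favours fatty acid genes and which is itself a liver X receptor target, read 37.4, 46.5, 41.2, 46.04 and 41.4 CPM in adolescents on water and morphine and 52.6, 58.99, 56.04, 52.4 and 48.1 CPM on antibiotics and morphine. On antibiotics and saline it read 47.2, 38.1, 44.05, 40.3 and 42.6 CPM. All 5 antibiotics-morphine libraries were above both groups. Srebf1 rose by 0.34 ± 0.086 against water (edgeR adjusted p = 0.00993) and by 0.34 ± 0.086 against saline (adjusted p = 0.0184) on the log2 scale. The second call was lost without antibiotics-saline replicate 2 or 4 or antibiotics-morphine replicate 2 or 3, where the adjusted p reached 0.0959. Rai1 on the other strand, which shares 1.93% of the exon bases of Srebf1, also rose in both comparisons, by 0.19 (adjusted p = 0.0417) and 0.23 (adjusted p = 0.0266).

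Srebf2, whose protein favours the cholesterol genes, read 297, 286, 290.1, 287 and 279 CPM on water and morphine and 250.1, 223, 252, 268 and 254 CPM on antibiotics and morphine. The antibiotics libraries all lay lower, replicate 2 lowest. Its log2 fold change was -0.21 ± 0.060 (edgeR adjusted p = 0.025), lost without replicate 1 or 2 of the first group or 2 or 3 of the second (adjusted p up to 0.119), and -0.14 ± 0.060 against saline (adjusted p = 0.21). Insig1, Insig2, Scap, the liver X receptor Nr1h2 and Mylip, the ligase that marks lipoprotein receptors for decay, did not pass in either comparison. Their log2 fold changes against water ran from -0.18 for Insig2 to 0.11 for Scap. Insig1, known as a sensitive SREBP target, read 74.7, 75.4, 76.4, 68.3 and 67.2 CPM on water and morphine and 66.4, 65.1, 67.5, 73.1 and 61.95 CPM on antibiotics and morphine, overlapping, with a log2 fold change of -0.12 ± 0.078 (adjusted p = 0.382).

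The carrier Stard4 (ENSMUSG00000024378.10), which moves sterol between membranes and is a known SREBP2 target, had the most negative log2 fold change of all members in both comparisons. It read 36.7, 33, 36.04, 32.4 and 30.1 CPM on water and morphine and 23.3, 20.3, 19.5, 22.9 and 24.4 CPM on antibiotics and morphine. On antibiotics and saline it read 35.4, 27.05, 35.98, 36.7 and 31.4 CPM, and on water and saline 36.6, 32.4, 36.6, 30.6 and 30.2 CPM. The highest antibiotics-morphine library was below the lowest of the other 15 adolescent libraries. Its log2 fold changes were -0.61 ± 0.10 (edgeR adjusted p = 6.24e-05) and -0.59 ± 0.10 (adjusted p = 0.000236), and both held without any 1 library.

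Npc1, the lysosomal membrane protein that exports cholesterol taken up in lipoproteins, moved the other way. It read 55.3, 56.2, 55.9, 55.1 and 59.97 CPM on water and morphine and 65.9, 64.5, 69.4, 68.02 and 63.8 CPM on antibiotics and morphine, without overlap. The log2 fold change was 0.23 ± 0.065 (edgeR adjusted p = 0.0193), a call that no single library removed. On the other strand, exons of Rmc1 cover 4.52% of the exon bases of Npc1 and those of Gm15956 cover 0.795%. The log2 fold changes of these overlapping genes against water were 0.19 and 0.21, and edgeR called neither (adjusted p = 0.297 and 0.45). Against saline the Npc1 ranges also did not overlap, but its change of 0.19 ± 0.065 did not pass (adjusted p = 0.101). Its luminal partner Npc2 and the lipoprotein receptor Lrp1 passed in neither comparison, with log2 fold changes against water of -0.18 and 0.16. Counting ranges in place of p-values, 13 of 39 members did not overlap between the morphine groups, 11 lower and 2 higher, where 5.92% of all genes tested did not, 3.46% lower and 2.46% higher. Between the antibiotics groups 9 members did not overlap, 7 lower and 2 higher, where 4.09% of all genes did not, 1.9% lower and 2.19% higher.

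Of 5 genes of efflux, storage and turnover, Abca1 rose and Soat1 fell. Abca1, the pump that loads cholesterol onto apolipoproteins, read 36.98, 36.1, 38.2, 42.4 and 41.7 CPM on water and morphine and 46.7, 69.4, 63.5, 41.7 and 42.7 CPM on antibiotics and morphine. Replicates 2 and 3 of the latter were far above all others, replicate 4 lay within the range on water and replicate 5 just above it. Its log2 fold change was 0.43 ± 0.12 (edgeR adjusted p = 0.0215), lost without water-morphine replicate 2 or antibiotics-morphine replicate 2 or 3 (adjusted p up to 0.117). Against saline it was 0.45 ± 0.12 (adjusted p = 0.0343), lost without any of antibiotics-saline replicates 1 to 4 or antibiotics-morphine replicates 2 and 3 (up to 0.181). Soat1, which esterifies cholesterol for storage, read 28 to 32.7 CPM and 24.2 to 27.4 CPM, without overlap. Its log2 fold change was -0.25 ± 0.079 (adjusted p = 0.0402), a call lost without 8 of the 10 libraries, all but water-morphine replicate 4 and antibiotics-morphine replicate 5 (up to 0.142). Abcg1, Apoe and Cyp46a1 did not pass, with log2 fold changes of 0.16, 0.014 and 0.011 against water.

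The 5 genes of fatty acid desaturation and elongation had negative log2 fold changes against water, from -0.31 to -0.10, and only Elovl6 passed. Elovl6, which lengthens 16-carbon chains, read 53.5, 52.2, 50.5, 50.6 and 55.6 CPM on water and morphine and 44.5, 37.2, 32.4, 39.1 and 58 CPM on antibiotics and morphine. Replicate 5 of the latter was the highest of the 10 and the other 4 were below all on water. The log2 fold change was -0.31 ± 0.094 (edgeR adjusted p = 0.029), lost without water-morphine replicate 1, 2 or 5 or antibiotics-morphine replicate 2, 3 or 4 (up to 0.164). Against saline it was 0.019 ± 0.10 (adjusted p = 0.946). Fads1, Fads2, Scd1 and Scd2 had log2 fold changes of -0.16, -0.13, -0.13 and -0.10 against water and passed in neither comparison.

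Other genes of these pathways were counted in 4 further lists. With antibiotics under morphine in adolescents, 4 of 11 other SREBP targets and fatty acid synthesis genes fell and none rose (36.4% called, against 7.56% of all genes). Acly, which makes cytosolic acetyl-CoA, read 172, 181, 175, 169 and 185 CPM on water and 165, 133, 149, 154 and 163 CPM on antibiotics, without overlap, and had a log2 fold change of -0.21 ± 0.058 (edgeR adjusted p = 0.0198). The log2 fold change was -0.28 ± 0.072 for the NADPH-yielding malic enzyme Me1 (adjusted p = 0.0114), -0.26 ± 0.086 for the elongase Elovl5 (adjusted p = 0.0468) and -0.44 ± 0.12 for Tmem97, a sterol-regulated receptor that binds Npc1 (adjusted p = 0.0132). In 2 lists 1 gene each was called, a share below that of all genes: 1 of 20 other genes of sterol transport and turnover (5%) and 1 of 14 genes of the isoprenoid branch (7.14%). The first was the lysosomal esterase Lipa, at a log2 fold change of -0.45 ± 0.11 (adjusted p = 0.00757), and the second the farnesyltransferase subunit Fntb, at 0.27 ± 0.084 (adjusted p = 0.038). None of 8 genes of SREBP processing and sterol-regulated degradation passed edgeR's test, also a share below that of all genes, with 1 at an unadjusted p under 0.05. With morphine on antibiotics none of these 53 genes passed it, with 6 at an unadjusted p under 0.05.

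Markers of cell types were compared in the same libraries. Of all genes tested, 7.56% passed for antibiotics under morphine in adolescents and 2.92% for morphine on antibiotics. Between the morphine groups of adolescents, 11 of 12 oligodendrocyte markers had positive log2 fold changes (median 0.28) and none passed edgeR's test, with 2 at an unadjusted p under 0.05, while their summed level was 1330 to 1610 CPM on water and 1426 to 2208 CPM on antibiotics. Of 12 astrocyte markers 9 were negative and 2 fell (Aqp4 and S100b), with sums of 4527 to 5059 CPM on water and 3968 to 5004 CPM on antibiotics. All 8 microglial markers were negative and 1 fell (C1qa), with sums of 356.7 to 414 CPM on water and 317 to 391 CPM on antibiotics. Of 6 excitatory neuron markers 4 were negative and 1 fell, Neurod6, at a log2 fold change of -0.55 ± 0.13 (edgeR adjusted p = 0.00891). Their summed level was 6537 to 6751 CPM on water and 6482 to 6997 CPM on antibiotics. Most of that sum is Camk2a and Slc17a7, which averaged 4367 and 1768 CPM over all 40 libraries. Neurod6 averaged 92.7 CPM, so the sum cannot show its change. Of 6 striatal neuron markers 3 were negative and 1 rose, Ppp1r1b, at 0.49 ± 0.088 (adjusted p = 0.000271), with sums of 119 to 129.8 CPM on water and 136 to 151 CPM on antibiotics, without overlap. Negative values were found for 6 of 7 endothelial, 6 of 8 mural and fibroblast, 6 of 8 oligodendrocyte precursor and 2 of 6 inhibitory neuron markers, and edgeR called none of these, with 1, 0, 0 and 1 at an unadjusted p under 0.05. With morphine on antibiotics, 1 of 12 oligodendrocyte markers (Mal) and 1 of 6 striatal neuron markers (Ppp1r1b) rose and 1 of 7 endothelial markers (Tek) fell. The part of these differences in the results for the members was not tested.

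The interaction asks whether the effect of morphine differed between adolescents on antibiotics and on water, and uses all 4 adolescent groups. It was called for 5 of 39 members, 4 negative and 1 positive, where 1.24% of all genes passed, 0.615% negative and 0.621% positive. Stard4 had an interaction of -0.61 ± 0.14 on the log2 scale (edgeR adjusted p = 0.0295), Hmgcs1 of -0.50 ± 0.12 (adjusted p = 0.0302), Msmo1 of -0.49 ± 0.12 (adjusted p = 0.0302), Sqle of -0.45 ± 0.12 (adjusted p = 0.0454) and Npc1 of 0.35 ± 0.092 (adjusted p = 0.0416). Npc1 therefore stood alone among these in the positive direction: on water its mean was 63.1 ± 4.63 CPM with saline and 56.5 ± 1.98 CPM with morphine, and on antibiotics 58.2 ± 3.67 CPM and 66.3 ± 2.38 CPM (SD, n = 5). The interaction rests on single libraries. No member was called without water-saline replicate 5, antibiotics-saline replicate 3 or 4 or antibiotics-morphine replicate 2 or 3, 1 was called without water-morphine replicate 2 or 3, 3 without water-saline replicate 4, antibiotics-saline replicate 1, water-morphine replicate 1 or antibiotics-morphine replicate 4, and 9 without antibiotics-morphine replicate 5. Adjusted p-values of Hmgcs1, Msmo1 and Stard4 then reached 0.078, 0.0949 and 0.0752. The calls of Sqle and Npc1 were lost without any of 14 and 12 of the 20 libraries.

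Antibiotics alone and morphine alone gave no called member in adolescents. For antibiotics against water with saline, where 0.0391% of all genes passed, edgeR, DESeq2 and limma-voom each called 0 of 39, and 6 members had an unadjusted p under 0.05. The log2 fold changes ran from -0.30 for Scd1, a stearoyl-CoA desaturase, to 0.12 for Mvd. For morphine against saline on water, where 0.319% of all genes passed, the 3 tools again called 0, with 3 members at an unadjusted p under 0.05 and log2 fold changes from -0.32 for Tm7sf2 to 0.23 for Ebp. These 2 comparisons share their water-saline libraries.

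In adults no member passed in any of the 5 comparisons, with edgeR, DESeq2 or limma-voom. The percentages of all genes called were 0.0503% for antibiotics with saline, 0.475% for morphine on water, 0.213% for morphine on antibiotics, 0.028% for antibiotics under morphine and 0% for the interaction. Members at an unadjusted p under 0.05 numbered 3, 2, 3, 12 and 2 in the same order. Under morphine, 12 of 18 synthesis enzymes had negative log2 fold changes for antibiotics, with a median of -0.17 against -0.0079 over all genes. Hmgcs1 read 264, 231, 330.2, 239 and 277 CPM in adults on water and morphine and 270.1, 215, 211, 216 and 226 CPM on antibiotics and morphine. Replicate 1 of the second group lay within the range of the first and the other 4 lay below all of it. The log2 fold change of Hmgcs1 was -0.24 ± 0.082 (edgeR adjusted p = 0.367). For Stard4 the adult libraries read 30.3, 28.7, 42.3, 26.1 and 35.5 CPM and 26.4, 33.9, 27.6, 29.03 and 32.5 CPM, overlapping throughout, with -0.12 ± 0.10 (adjusted p = 0.81). Sc5d had the smallest p of the members there, at -0.19 ± 0.062 (adjusted p = 0.293).

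The summed level of the 19 synthesis enzymes in adults was, with saline, 886 ± 37.2 CPM for water and 822 ± 41.6 CPM for antibiotics and, with morphine, 895 ± 70.5 CPM for water and 805 ± 48.1 CPM for antibiotics (SD, n = 5). Libraries on water lay at 822 to 1003 CPM and those on antibiotics at 771 to 890.4 CPM, so the ranges overlapped. The adult oligodendrocyte markers had negative log2 fold changes for antibiotics under morphine in 10 of 12 (median -0.14), and edgeR called none, with 1 at an unadjusted p under 0.05.

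The difference between ages was itself tested and did not pass for any member. For the effect of morphine on antibiotics, adults minus adolescents, 0% of all genes passed edgeR's test and 0 of 39 members did, with 12 at an unadjusted p under 0.05. Stard4 had the smallest p, at 0.60 ± 0.14 on the log2 scale (edgeR adjusted p = 0.308). For the effect of antibiotics under morphine, 0.00559% of all genes passed and 0 members, with 9 at an unadjusted p under 0.05, and Stard4 was at 0.48 ± 0.14 (adjusted p = 0.716). DESeq2 and limma-voom also called 0 in both. The calls in adolescents and their lack in adults thus do not show that the ages differ.

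**Figure D3:**
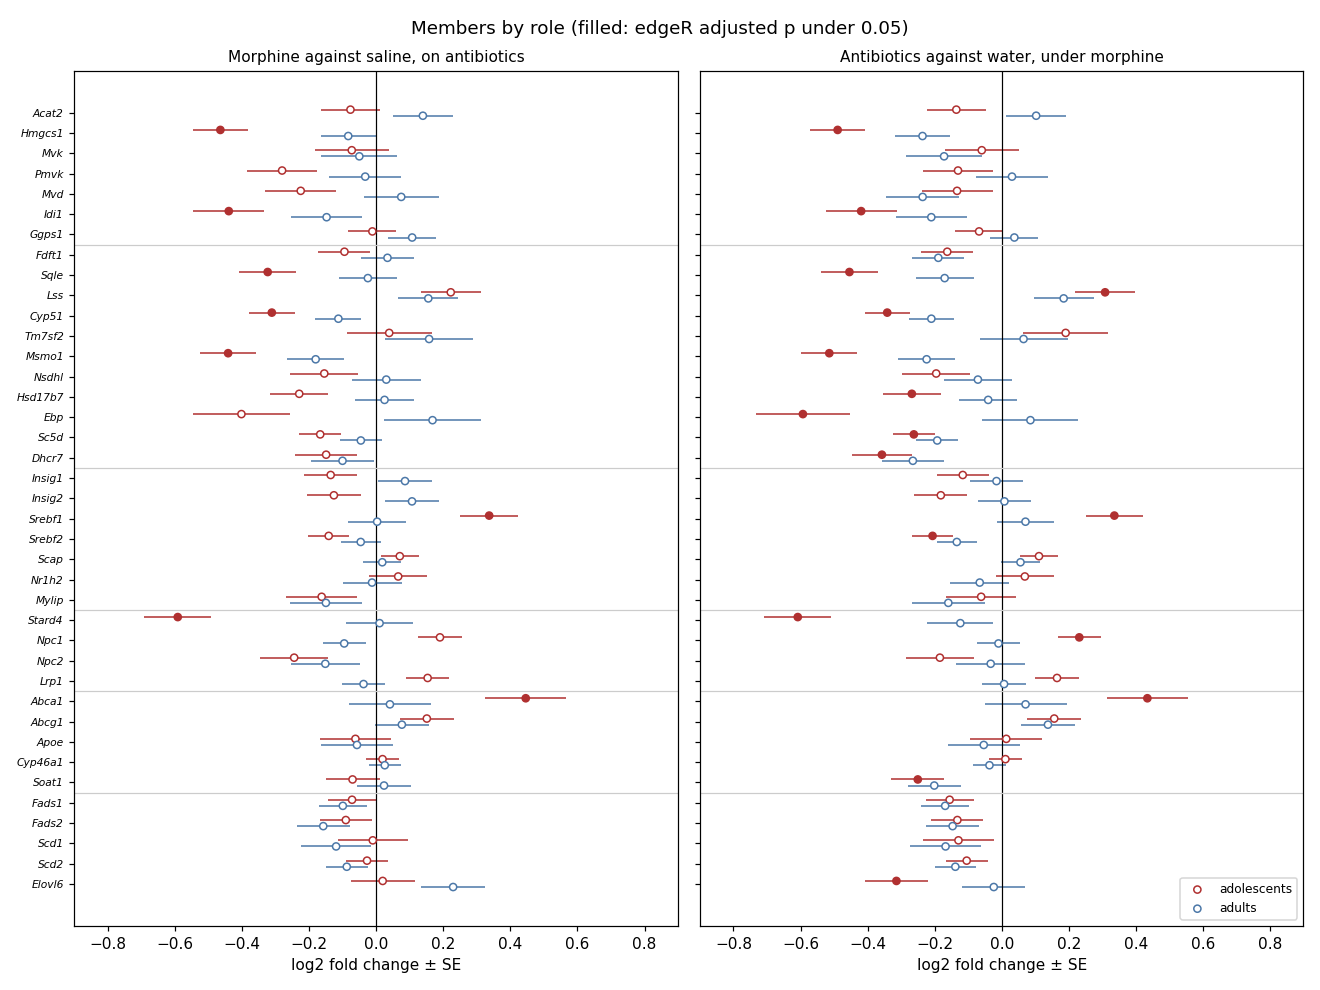
Log2 fold change ± SE (horizontal axis) of the 39 members tested, in rows by role, for morphine against saline on antibiotics (left) and antibiotics against water under morphine (right). Red marks adolescents and blue adults, and filled points passed edgeR's test at an adjusted p under 0.05: 8 on the left and 17 on the right, all in adolescents.

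Averaged over the 4 treatments, members differed between the ages in both directions. Of 39 members 13 passed, 5 higher and 8 lower in adults, where 17.9% of all genes passed, 9.28% higher and 8.57% lower. All 5 synthesis enzymes called were lower in adults. Of 3 uptake and transport genes called, Lrp1 and Npc1 were higher and Npc2 was lower, and of 3 genes called in efflux, storage and turnover, Abcg1 and Soat1 were higher and Cyp46a1 was lower. Lrp1, a large endocytic receptor for Apoe particles, had a lowest, median and highest value of 581, 641 and 744 CPM in 20 adolescent libraries and 649.6, 748 and 870.5 CPM in 20 adult libraries. The ranges overlapped, and the adult mean was higher in 4 of 4 treatments. Its log2 fold change was 0.21 ± 0.033 (edgeR adjusted p = 3.54e-06), adults minus adolescents.

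Mvd, the decarboxylase that yields isopentenyl pyrophosphate, had a lowest, median and highest value of 16.1, 19.4 and 23.3 CPM in adolescents and 10.7, 16.1 and 20.3 CPM in adults. For Dhcr7 these were 23.6, 31.98 and 40.6 CPM and 21.6, 27.5 and 32.8 CPM, and for the kinase Pmvk 18.3, 22.5 and 29.6 CPM and 13.7, 20.2 and 24.5 CPM. In each of the 3 the adult mean was lower in 4 of 4 treatments and the ranges overlapped. Their log2 fold changes were -0.26 ± 0.054, -0.23 ± 0.046 and -0.20 ± 0.053 (edgeR adjusted p = 0.000457, 0.000301 and 0.00483). Mvk, the mevalonate kinase, and Tm7sf2 were lower too, at log2 fold changes of -0.15 and -0.22 (adjusted p = 0.0463 and 0.014). The call of Mvk was lost when any of 18 of the 40 libraries was left out. Hmgcs1, Msmo1, Sqle and Cyp51 had age differences of -0.080, -0.052, -0.11 and -0.074 and did not pass.

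Abcg1, a pump that passes cholesterol to lipoproteins, had a lowest, median and highest value of 50.7, 69.1 and 79.7 CPM in adolescents and 63.9, 75.1 and 89.3 CPM in adults, higher in adults in 4 of 4 treatments (0.16 ± 0.041, edgeR adjusted p = 0.00465). Srebf1 read 34.4, 45.04 and 58.99 CPM and 40.7, 49.5 and 58.7 CPM in the same terms, with the adult mean higher in 3 of 4 treatments, all but antibiotics with morphine (0.16 ± 0.043, adjusted p = 0.00592). Npc1 and Soat1 were higher in adults, at log2 fold changes of 0.10 and 0.11 (adjusted p = 0.0199 and 0.0456). Insig1, Npc2 and Cyp46a1 were lower, at -0.13, -0.14 and -0.068 (adjusted p = 0.013, 0.0409 and 0.0418). Several of these sat near the threshold: the call of Soat1 was lost without any of 29 of the 40 libraries and that of Npc2 without any of 19. That of Npc1 was lost without adolescent antibiotics-saline replicate 1, adult antibiotics-saline replicate 3 or adult antibiotics-morphine replicate 5 (adjusted p up to 0.063), and that of Cyp46a1 without adolescent antibiotics-saline replicate 2 (0.0508).

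Between the ages on water and saline, with neither antibiotics nor morphine, 0 members passed edgeR's, DESeq2's or limma-voom's test, where 0.257% of all genes passed edgeR's, and 2 had an unadjusted p under 0.05. Beside the averaged age differences, 9 of 12 oligodendrocyte markers were called lower in adults (median -0.34), and their summed level was 1208 to 2283 CPM in adolescent and 855 to 1647 CPM in adult libraries. Of 8 precursor markers 4 were lower. The median log2 fold change of the 18 synthesis enzymes was -0.077, and that of the 21 other members 0.011, against 0.0084 over all genes. The part of oligodendrocytes in the age differences of the members was not tested. Of the 53 further pathway genes 4 were called, a smaller share than the 17.9% of all genes: Acaca and Mbtps2 were higher in adults, at log2 fold changes of 0.11 and 0.18, and Aacs and Scarb1 were lower, at -0.12 and -0.12 (edgeR adjusted p = 0.0242, 0.0138, 0.0174 and 0.0347).

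**Figure D4:**
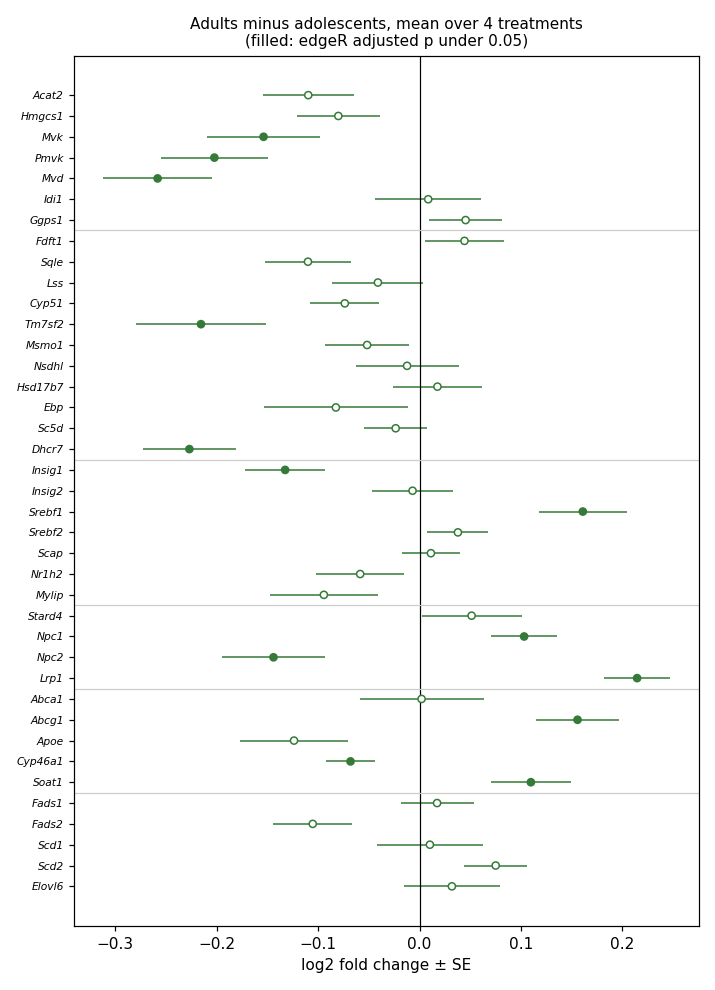
Log2 fold change ± SE (horizontal axis), adults minus adolescents averaged over 4 treatments, of the 39 members tested, in rows by role. Filled points passed edgeR's test at an adjusted p under 0.05, 5 to the right of 0 and 8 to the left, with Lrp1 farthest right at 0.21 and Mvd farthest left at -0.26.

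By group mean, 10 of 18 synthesis enzymes were lowest of the 8 groups in adolescents on antibiotics and morphine, and 10 of 18 were highest in adolescents on water and morphine. Shares of all genes were not counted for such orders of group means. Of all 39 members, 17 were lowest in adolescents on antibiotics and morphine and 7 in adults on antibiotics and morphine. Hmgcs1 ran from 207 ± 28.8 CPM in the first of these groups through 228 ± 24.3 CPM in adults on antibiotics and morphine to 291 ± 18.6 CPM in adolescents on water and morphine (SD, n = 5). The step from the lowest group to the adult antibiotics-morphine group was within 1 SD. So were the steps from there to the adult antibiotics-saline group (241 ± 15.2 CPM), between the adult groups on water, and among the top 3, all adolescent. For Stard4 the order began at 22.1 ± 2.06 CPM in adolescents on antibiotics and morphine, and the other 7 groups lay between 29.7 ± 3.15 CPM in adults on antibiotics and saline and 33.6 ± 2.73 CPM in adolescents on water and morphine.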

How the data were processed

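The authors deposited raw read counts per gene, not normalized, with 0 rows that name no gene. Build mm10, STAR 2.7.10a and DESeq2 are named, with no roles, per the submitters' processing notes; strand setting and annotation are not given in the sources here. Counts were fitted with edgeR 4.0.16 in R 4.3.3: filterByExpr (minimum count 10, minimum total 15) kept 17880 genes, TMM scaled the libraries, and robust quasi-likelihood models held 1 coefficient per group over all 40 libraries. Each of 14 contrasts had a two-sided test, with Benjamini-Hochberg adjustment over all genes and calls under 0.05. The SE is the log2 fold change divided by the square root of F. Symbols matched 91.4% of identifiers. No replicates were near-identical in a chi-square of their counts. Alternatives were RLE size factors, other count filters, DESeq2 1.42.0, limma-voom (limma 3.58.1), the compared groups alone, a replicate block and leaving out each library. Limma-voom was run with quality weights per library. Members described by library are up to 14 with the smallest p, 1 more per role without one (of these, Lrp1, Mvd, Pmvk and Abcg1 were called only for age and are given as lowest, median and highest of 20 libraries per age), and others named beside a call or chosen after their values were seen (Npc1, Abca1, Srebf2, Lss, Insig1, Soat1 and the overlapping genes Gm48342 and Rai1). The members and lists were chosen with earlier results of these data known. The fit was tested on simulated counts. Same-numbered replicates deviated together little on average and the labels state no pairing, so numbers were not used to pair.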

Additional observations from a re-analysis of the deposited data

Results flagged for a closer look

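In 21 members whose values by library, ranges or medians are reported, 7 of 168 groups of 5 libraries held 1 library far from the other 4, where chance flags about 1 in 20. These were a high Msmo1 in adolescent water-morphine replicate 3 (83.1 CPM), a high Hmgcs1 in adult antibiotics-morphine replicate 1 (270.1 CPM), a low Sqle in adolescent water-morphine replicate 4 (61.5 CPM), a low Pmvk in adult antibiotics-saline replicate 5 (17.5 CPM), a high Idi1 in adult antibiotics-saline replicate 3 (17.6 CPM), a high Npc1 in adolescent water-morphine replicate 5 (59.97 CPM) and a low Npc1 in adult water-saline replicate 5 (55.6 CPM). None of the calls of Msmo1, Sqle and Npc1 for antibiotics under morphine in adolescents was lost without the library concerned.

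By the interaction in edgeR, the effect of morphine was called different between adolescents on antibiotics and on water for some members. On the log2 scale these were Hmgcs1 (-0.50), Sqle (-0.45), Msmo1 (-0.49), Stard4 (-0.61) and Npc1 (0.35). In the same order, their calls were lost without any of 7, 14, 7, 5 and 12 of the 20 libraries. On water the effects of morphine on these genes were 0.031, 0.13, 0.052, 0.019 and -0.16, and on antibiotics -0.46, -0.32, -0.44, -0.59 and 0.19.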

How the results depend on the processing

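Counts of members called stayed within 1.5 times the edgeR count under the alternatives other than leaving out 1 library, with these exceptions: limma-voom called 13 in place of 8 for morphine on antibiotics in adolescents, DESeq2 called 8 in place of 5 for the adolescent interaction, and without a filter on low counts 2 in place of 0 were called for the age difference in the effect of morphine on antibiotics. Leaving out 1 library gave 4 to 10 members for morphine on antibiotics in adolescents, 9 to 18 for antibiotics under morphine, 0 to 9 for the interaction and 9 to 16 for age averaged over treatments. It gave 0 in the other 10 comparisons. The cause of these shifts was not tested. With the replicate block within age these 4 counts were 8, 17, 4 (Npc1 lost) and 14 (Mvk lost, at an adjusted p of 0.0559, while others were gained). How that block was coded was settled after the data were seen. Same-numbered libraries correlated at means from -0.0168 to 0.0446, and the labels do not state that the numbers pair samples. Other pairs were not set beside them, so these correlations do not settle whether the numbers pair samples. Calls of Hsd17b7 and Soat1 for antibiotics under morphine were lost with RLE size factors, without a filter and in a fit of the compared groups alone, and that of Hsd17b7 also with DESeq2 (adjusted p = 0.0505). Those of Abca1 and Elovl6 were lost in the last of these, as was that of Abca1 for morphine on antibiotics. For age, calls of Mvk, Npc1, Cyp46a1 and Soat1 were lost without a filter, as was the interaction of Npc1. The age call of Soat1 was also lost with RLE size factors (0.0521) and DESeq2 (0.0506). Of the calls of single members, 269 of 288 held under these alternatives and 704 of 870 when 1 library was left out, and none reversed. Fdps did not pass the filter on low counts in the main fit, and why its counts were few was not tested.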
